A study of Mus musculus with 6 samples.

Results

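The 9 genes of growth-factor signalling in myeloid cells described here were chosen by symbol from the deposited expression table: *Csf2ra*, *Csf2rb*, *Csf2rb2*, *Il3ra*, *Csf3r*, *Csf1r*, *Kit*, *Flt3* and *Csf1*. All 9 were found among the 18071 genes with a value. The study measured RNA of mouse immature dendritic cells (imDCs), antigen-sampling cells that later mature into presenters for T cells. They were grown from femur and tibia marrow of male C57BL/6 mice aged 7 weeks, in medium holding GM-CSF at 20 ng/ml, with IL-4 added at 10 ng/ml, for 7 days, and were then enriched by a CD11c kit. One group of 3 libraries came from cells kept static, the other 3 from cells under fluid shear stress (FSS) of 10 dyn/cm2 for 3 h in a cone-plate device. Both groups carry the same genotype and the same cytokines, so no group without GM-CSF is part of the comparison. The question put to the data is how the RNA of sheared imDCs differs from that of static ones.

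Colony-stimulating factors are secreted proteins that keep myeloid cells alive and set what they become. GM-CSF binds an alpha chain encoded by *Csf2ra*, and signalling needs a beta chain that is shared with the receptors of IL-3 and IL-5 and is encoded by *Csf2rb*. Mice have another beta chain gene, *Csf2rb2*, whose product works with the IL-3 alpha chain encoded by *Il3ra*. These chains carry no kinase of their own and pass the signal through JAK2 and STAT5. *Csf3r* encodes the receptor of G-CSF, the growth factor of neutrophils. *Csf1r*, *Kit* and *Flt3* encode receptor tyrosine kinases for M-CSF, stem cell factor and FLT3 ligand, and *Csf1* encodes M-CSF itself.

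The values were taken as FPKM, fragments per transcript length and per mapped fragments, so levels can be compared between genes on that scale. Depth is unknown, since no counts are given, and counting error is therefore not given. The labels do not say that replicates came from separate cultures or animals, so each p-value here covers the spread among these libraries alone, and that spread may be technical. Of 12 dendritic cell markers, 10 could be tested, and *Itgax*, the gene of CD11c, stood between 397 and 599 FPKM. *Itgax* fell with the replicate block described below (limma adjusted p = 0.0199, and 0.495 with scaling). Of the 10 tested, 5 fell and 0 rose with the block, where 25.1% of all genes fell and 7.73% rose. With scaling as well 3 fell (*Irf4*, *Ccr7* and *Zbtb46*) and 1 rose (*Cd83*), where 16.8% of all genes fell and 19.2% rose. *Cd74* and *H2-Aa* of antigen presentation were the highest of that list (4178 to 5319 and 1229 to 1472 FPKM). The other two markers were *Flt3* and *Cd209a*, both under 1 FPKM in every library. Macrophage markers were present as well, summing over 11 genes to 3629 to 6799 FPKM in static and 3951 to 7509 FPKM in FSS libraries, with *Lyz2* (3089 to 6845 FPKM) and *Cd68* (229 to 383 FPKM) the highest. Lymphocyte, stromal and red cell markers were low, with 5 of 7, 6 of 9 and 5 of 6 of those with a value under 1 FPKM in every library. Plasmacytoid dendritic cell markers summed to 110 to 142 FPKM in static and 85.5 to 124 FPKM in FSS libraries, with *Siglech* at most 0.03 FPKM. In RNA of whole cultures, fewer cells of a type and less RNA per cell cannot be told apart.

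The beta chain genes are neighbours with no other gene annotated between them, and their coding sequences are near copies. In the GENCODE M21 transcripts *Csf2rb*-201 and *Csf2rb2*-201, the coding sequences of 2691 and 2637 bases matched at 95.2% of 2631 aligned bases, with 126 differences and a longest identical run of 242 bases. Of all 100-base windows of the *Csf2rb2* coding sequence, 11.3% occur unchanged in that of *Csf2rb*, and of all 50-base windows 26.5%. How the authors divided such reads is not given in the sources used here, so the split between both genes is uncertain, and their sum is given beside them. The 120-base window without gaps that holds most differences (22 bases, in capitals) is shown because reads from there can be assigned to 1 of the genes. It spans coding bases 309 to 428 of *Csf2rb* and 312 to 431 of *Csf2rb2*.
Csf2rb: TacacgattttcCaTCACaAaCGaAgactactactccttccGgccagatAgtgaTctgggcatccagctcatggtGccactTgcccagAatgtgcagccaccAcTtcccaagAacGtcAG
Csf2rb2: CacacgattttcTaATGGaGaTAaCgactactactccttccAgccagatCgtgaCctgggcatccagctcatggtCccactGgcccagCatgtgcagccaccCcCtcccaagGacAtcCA

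Promoter sequences of RefSeq (GRCm38.p6) were matched for 7 of the 9 genes, each running from 250 bases before the start to 50 after it. They were searched on both strands for GAGGAA, a core of the sites bound by PU.1, the ETS factor of myeloid cells, and for TTCNNNGAA, the inverted repeat that STAT5 binds. GAGGAA occurred in 4 of 7 (*Csf2ra*, *Csf2rb2*, *Csf3r* and *Kit*), against 31.3% of 27025 genes with a promoter sequence. TTCNNNGAA occurred in 1 of 7 (*Csf2rb2*), against 9.55%. Such a match is a run of letters and does not show binding. The stretch from 100 bases before to 20 after the start is shown for *Csf2ra*, *Csf2rb2* and *Csf3r*, with matches to either motif in capitals. Any link between these matches and the levels under FSS was not tested. *Csf2ra* lies at chr19:61228399-61228518 (minus strand), *Csf2rb2* at chr15:78305702-78305821 (minus strand) and *Csf3r* at chr4:126024559-126024678 (plus strand). In *Csf2ra* 2 adjoining GAGGAA matches end 3 bases before the start. In *Csf2rb2* the STAT-type repeat covers bases -15 to -7.
Csf2ra: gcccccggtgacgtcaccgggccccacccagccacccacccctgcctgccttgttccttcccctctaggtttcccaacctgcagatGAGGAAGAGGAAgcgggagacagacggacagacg
Csf2rb2: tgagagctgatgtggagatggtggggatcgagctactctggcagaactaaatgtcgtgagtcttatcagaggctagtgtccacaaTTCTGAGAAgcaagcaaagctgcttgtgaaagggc
Csf3r: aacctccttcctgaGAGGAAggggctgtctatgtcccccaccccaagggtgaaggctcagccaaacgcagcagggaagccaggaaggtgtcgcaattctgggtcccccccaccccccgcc

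The beta chain genes stood highest of the 9. Ranked by mean FPKM among 18071 genes, *Csf2rb* was at place 120 and *Csf2rb2* at 243, followed by *Csf1r* (429), *Csf2ra* (437) and *Csf1* (500). The ranges of *Csf1r*, *Csf2ra* and *Csf1* over the 6 libraries overlapped (130 to 184, 129 to 160 and 99.1 to 151 FPKM), so these 3 had no clear order. *Il3ra* (11.0 to 17.7 FPKM) and *Csf3r* (2.21 to 14.9 FPKM) overlapped too, *Kit* lay at 0.96 to 2.52 FPKM and *Flt3* at 0.29 to 0.67 FPKM. The plot of all 9 genes by library shows these levels.

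**Figure D1:**
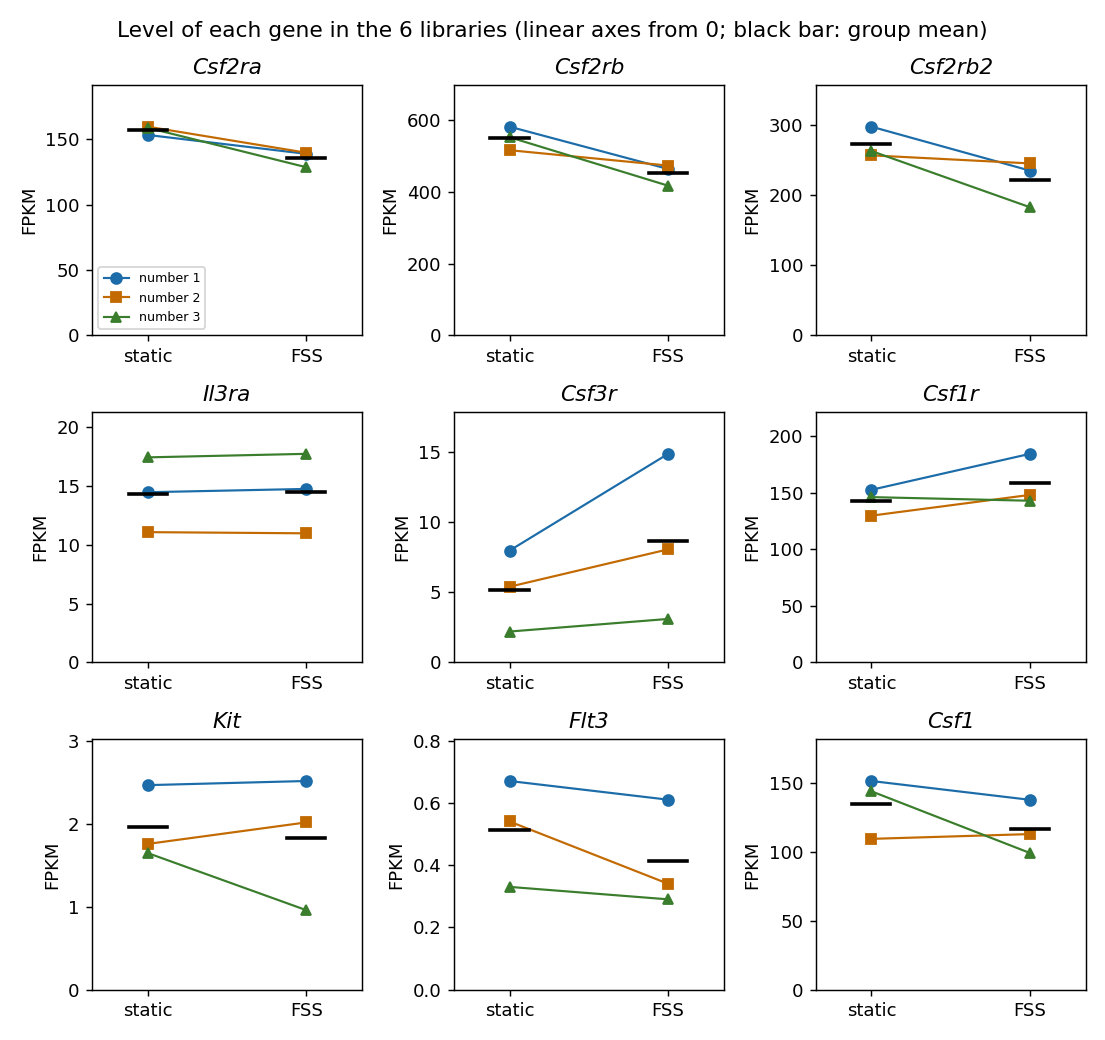
FPKM (vertical axes, linear, each from 0) of the 9 genes in the 3 static and 3 FSS libraries. Lines join the libraries of 1 replicate number, and black bars are group means. For *Csf2ra*, *Csf2rb* and *Csf2rb2* all 3 FSS points lie below all 3 static points, while *Csf3r* goes up along each line.

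Differences under FSS were small in most of the 9 genes. *Flt3* did not reach 1 FPKM in 3 libraries, which left 8 to test. By limma on log2(FPKM + 1) over 10899 genes, 0 of 8 passed upward and 0 downward at a threshold of 0.05 on the Benjamini-Hochberg adjusted p, against 0.853% and 0.862% of all genes tested. None of the 8 had an unadjusted p under 0.05 either, against 1969 of all genes. Same-numbered libraries of both groups deviated together, so the numbers were taken to pair the samples, and the test was repeated with the number as a block. With the block 1 of 8 rose (*Csf3r*; 7.73% of all genes did) and 2 fell (*Csf2rb* and *Csf2rb2*; 25.1% of all genes did). The 2 falls of 8 are close to the share among all genes. Over all genes tested the median log2 difference was -0.12, and 0.02 after median-ratio scaling of the libraries. With the block and that scaling, *Csf3r* and *Csf1r* rose (2 of 8, against 19.2% of all genes) and none of the 8 fell (against 16.8%), by limma. At an unadjusted p under 0.05, 2 of 8 passed in that fit, against 5036 of the 10899 genes tested. With the block and no scaling 4 of 8 did, against 5005. The groups did not overlap for 3 of 8, all lower under FSS, against 20.4% of genes lower and 5.1% higher.

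**Figure D2:**
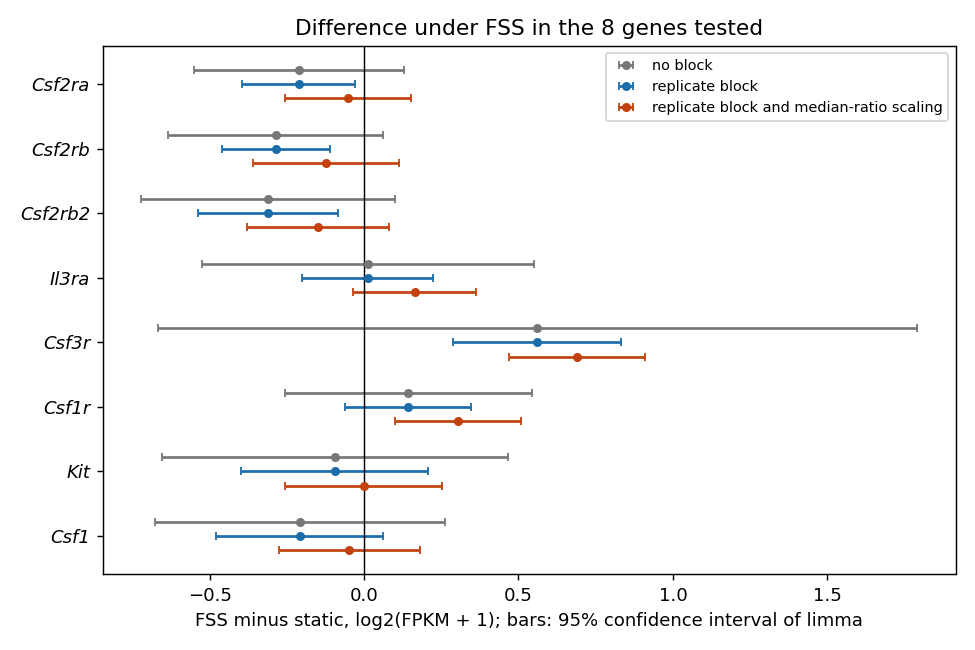
Difference between FSS and static on the log2(FPKM + 1) scale for the 8 genes tested (horizontal axis), with points for the estimate and bars for limma's 95% confidence interval. Grey is the fit without the block, blue the fit with it, and red the fit with the block and median-ratio scaling. Only *Csf3r* has an interval above 0 in both blocked fits, and the intervals of *Csf2rb* and *Csf2rb2* include 0 once scaled.

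*Csf2rb*, the shared beta chain, measured 583, 517 and 553 FPKM in static replicates 1, 2 and 3 and 464, 474 and 418 FPKM in FSS replicates 1, 2 and 3. Every FSS library was below every static one, and the mean ratio was 0.821. The log2 difference was -0.29 with a standard error of 0.15 without the block (limma adjusted p = 0.377) and of 0.075 with it (limma adjusted p = 0.024). In the pairs the ratio was 0.797, 0.917 and 0.755, so pair 2 moved least. With the block and median-ratio scaling the difference was -0.12 (95% interval -0.36 to 0.11; limma adjusted p = 0.385), and the call was lost. It was also lost with the block when pair 1 or pair 3 was left out (limma adjusted p = 0.0699 and 0.0641).

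*Csf2rb2*, the IL-3 beta chain, measured 298, 257 and 263 FPKM in static and 235, 245 and 183 FPKM in FSS libraries. Again the groups did not overlap, though the gap between static replicate 2 and FSS replicate 2 was small. The log2 difference was -0.31 with a standard error of 0.18 (limma adjusted p = 0.418; block 0.0446; block and scaling 0.282). With the block the call was lost without pair 1 (limma adjusted p = 0.11) and without pair 3 (0.109), and without FSS replicate 3 alone the difference was -0.18.

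The sum of both beta chain genes, given because the split of their reads is uncertain, was 880, 774 and 816 FPKM in static and 699, 719 and 600 FPKM in FSS libraries. How reads matching both genes were counted is not known, so the sum may depend on it too. Its mean went from 823 ± 53.7 to 673 ± 63.6 FPKM (SD, n = 3 per group), a ratio of 0.817. The groups did not overlap, and the exact two-sided permutation test gave p = 0.1, the smallest that 3 against 3 libraries allow. After median-ratio scaling the log2 difference went from -0.29 to -0.13, the groups overlapped and the exact permutation p was 0.3. *Csf2rb* held 66.2%, 66.8% and 67.8% of the sum in static and 66.4%, 65.9% and 69.6% in FSS libraries. This share did not separate the groups (exact permutation p = 0.9).

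*Csf2ra*, the GM-CSF alpha chain, measured 153, 160 and 159 FPKM in static and 139, 140 and 129 FPKM in FSS libraries. Each FSS library was lower than each static one, with ratios of 0.906, 0.875 and 0.81 in pairs 1, 2 and 3. The difference did not pass in any of the fits: the log2 difference was -0.21 (95% interval with the block -0.39 to -0.03), with a limma adjusted p of 0.516 without the block and 0.0735 with it. After scaling it was -0.05 (interval with the block -0.26 to 0.15). The summed beta chains were 5.75, 4.85 and 5.14 times as high as *Csf2ra* per length in static and 5.04, 5.15 and 4.67 times in FSS libraries. This ratio of chains did not differ beyond its spread (exact permutation p = 0.5).

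*Il3ra*, the IL-3 alpha chain, measured 14.5, 11.1 and 17.4 FPKM in static and 14.7, 11.0 and 17.7 FPKM in FSS libraries. The values of a pair were nearly the same, at ratios of 1.02, 0.991 and 1.02, while pairs differed from each other. The log2 difference was 0.01 (95% interval with the block -0.20 to 0.22), and limma gave an adjusted p of 0.986 without and 0.924 with the block.

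*Csf3r*, the G-CSF receptor, measured 7.99, 5.41 and 2.21 FPKM in static and 14.9, 8.08 and 3.11 FPKM in FSS libraries. Each FSS library was above its static partner, by 1.86, 1.49 and 1.41 times in pairs 1, 2 and 3, yet the groups overlapped because the pairs differed by more than FSS did. The log2 difference was 0.56 with a standard error of 0.53 without the block (limma adjusted p = 0.66) and of 0.12 with it (limma adjusted p = 0.0103). Without the block it was 0.10 without FSS replicate 1, 0.15 without static replicate 3, 0.89 without static replicate 1 and 1.08 without FSS replicate 3. With the block and scaling it was 0.69 (limma adjusted p = 0.000933). The call with the block was kept without pair 2 or 3 and lost without pair 1 (limma adjusted p = 0.0503).

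Neutrophil markers were read beside *Csf3r*, since neutrophils carry its receptor. Their sum over 11 genes was 364 to 571 FPKM in static and 338 to 482 FPKM in FSS libraries, led by the calprotectin genes *S100a8* and *S100a9*. *S100a8* measured 154, 243 and 240 FPKM in static and 98.9, 156 and 146 FPKM in FSS libraries, and fell with the block (limma adjusted p = 0.00148). *S100a9* did not pass (limma adjusted p = 0.432 with the block). *Cxcr2*, a chemokine receptor of neutrophils taken up after its values were seen, measured 12.2, 25.6 and 17.4 FPKM in static and 3.74, 10.1 and 8.32 FPKM in FSS libraries and fell with the block (limma adjusted p = 0.000865). The marker *Ly6g* stayed at 0.34 to 1.33 FPKM in the 6 libraries. Of the 9 markers tested, 0 passed without the block by limma and 2 had an unadjusted p under 0.05, against 1969 of all 10899 genes. With the block 2 fell and none rose, where 25.1% of all genes fell and 7.73% rose. With scaling as well 3 rose and the same 2, *S100a8* and *Cxcr2*, fell, where 19.2% of all genes rose and 16.8% fell. The 3 were *Mmp8*, a collagenase of neutrophil granules, and the granule protein genes *Ltf* and *Ngp*, named with their values known (limma adjusted p = 0.0148, 0.0362 and 0.0274 with the block and scaling). *Mmp8* measured 61.3, 42.6 and 30.9 FPKM in static and 76.3, 45.4 and 39.9 FPKM in FSS libraries. Like *Csf3r* it was higher under FSS in each pair, highest in pair 1 and lowest in pair 3, and it was lower in number 3 (-0.63 log2; limma adjusted p = 0.0443, and 0.165 after scaling). *Ltf* and *Ngp* were lowest in pair 1, as were *S100a8*, *S100a9* and *Cxcr2*. The part of neutrophils in the *Csf3r* values was not tested.

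*Csf1r*, the M-CSF receptor, measured 152, 130 and 146 FPKM in static and 184, 148 and 143 FPKM in FSS libraries. FSS was higher in pairs 1 and 2 (ratios of 1.21 and 1.14) and not in pair 3 (0.978). The log2 difference was 0.14 (95% interval with the block -0.06 to 0.35; limma adjusted p = 0.748 without and 0.242 with the block). Scaling moved it to 0.30 (interval with the block 0.10 to 0.51; limma adjusted p = 0.0286), so whether *Csf1r* is called depends on the scaling. Without the block it was 0.03 without FSS replicate 1 and 0.08 without static replicate 2, and reached 0.21 without FSS replicate 3. Leaving out pair 3 also brought it to the threshold with the block (0.23; limma adjusted p = 0.0499). Its ligand gene *Csf1* measured 151, 109 and 144 FPKM in static and 138, 113 and 99.1 FPKM in FSS libraries. *Csf1* was lower by ratio in pairs 1 and 3 (0.91 and 0.689) and near equal in pair 2 (1.03), and did not pass (limma adjusted p = 0.67; 0.202 with the block). Its log2 difference of -0.21 ran from -0.35 to -0.10 with 1 library left out. The 3 libraries with the lowest *Csf1* were static replicate 2 and FSS replicates 2 and 3.

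*Kit*, the stem cell factor receptor of progenitors and mast cells, measured 2.47, 1.76 and 1.65 FPKM in static and 2.52, 2.02 and 0.96 FPKM in FSS libraries. Pairs 1 and 2 were slightly higher under FSS (ratios of 1.02 and 1.15) and pair 3 was lower (0.582). Its log2 difference of -0.09 did not pass (limma adjusted p = 0.897; 0.6 with the block), and without both libraries of pair 3 it was 0.08. Mast cell and basophil markers summed to 18.8 to 25.3 FPKM in static and 20.2 to 23.8 FPKM in FSS libraries, led by the histamine-forming enzyme gene *Hdc* (4.76 to 20.2 FPKM) and the basophil protease gene *Prss34* (2.28 to 10.2 FPKM). *Hdc* was highest and *Prss34* lowest in pair 1, so their sum hides opposite patterns. *Prss34* rose with the block (limma adjusted p = 0.0405, and 0.00652 with scaling as well), and *Hdc* did not pass (0.0503 with the block). Of the 3 tested, 1 rose with the block and 2 with scaling as well, where 7.73% and 19.2% of all genes rose. None of the 3 fell in either fit. The mast cell gene *Cpa3* stood at 0.26 to 1.25 FPKM. Markers of blood progenitors summed to 35.5 to 41.8 FPKM in static and 15.4 to 26.8 FPKM in FSS libraries. Most of that sum was the cell cycle kinase gene *Cdk6*, which fell with the block (limma adjusted p = 0.0032); *Meis1*, next in level, ran from 0.66 to 2.85 FPKM. The part of any such cells in the *Kit* values was not tested.

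*Flt3*, the receptor that drives dendritic cells from progenitors in the body, measured 0.67, 0.54 and 0.33 FPKM in static and 0.61, 0.34 and 0.29 FPKM in FSS libraries. It was too low for the fit, and the exact two-sided permutation test on log2(FPKM + 1) gave p = 0.6. The value was lower under FSS in each pair, at ratios of 0.91, 0.63 and 0.879.

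Number 3 was set against numbers 1 and 2 because earlier results of these data showed it apart. The p-values of this contrast therefore do not come from an independent choice. Calls came for 3 of the 8 genes tested, close to the shares among all genes. With the group in the model, limma placed 1 of the 8 genes higher in number 3 than in numbers 1 and 2 (*Il3ra*; 13.7% of all genes) and 2 lower (*Csf3r* and *Kit*; 29.3% of all genes). *Csf3r* stood at -1.39 log2 in number 3 against the others (limma adjusted p = 0.00335), *Kit* at -0.48 (0.0471) and *Il3ra* at 0.44 (0.0492, lost with a pseudocount of 0.1). After scaling, *Csf3r* and *Il3ra* kept their calls and *Kit* did not (limma adjusted p = 0.0841). The macrophage gene *Lyz2* was also lower in number 3 (-0.78 log2; limma adjusted p = 0.00563, and 0.0531 after scaling), and its part in the *Csf3r* pattern was not tested. *Csf2ra*, *Csf2rb* and *Csf1r* showed -0.05, -0.08 and -0.08 log2 there.

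**Figure D3:**
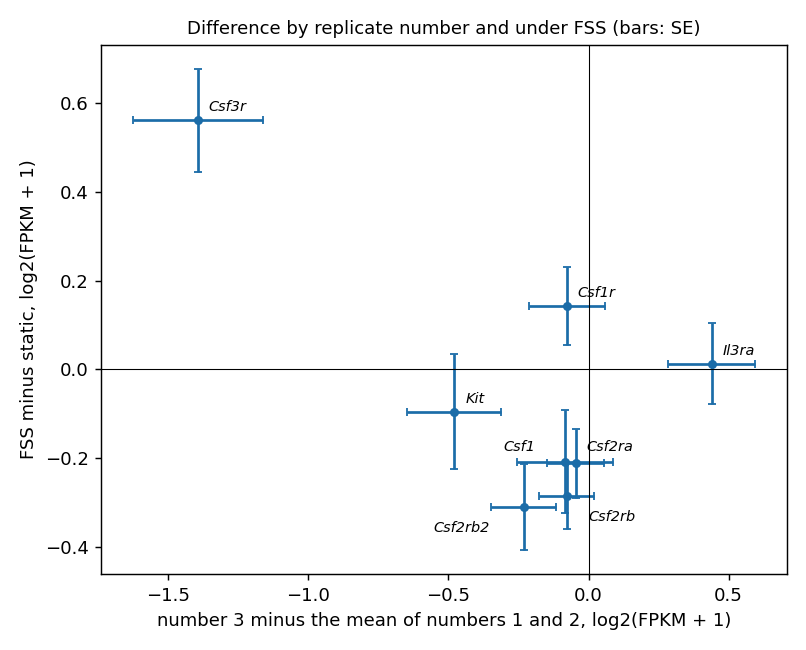
Difference of number 3 from numbers 1 and 2 (horizontal axis) against the difference of FSS from static (vertical axis), both on the log2(FPKM + 1) scale, for the 8 genes tested. Bars are limma standard errors, the vertical ones from the fit with the block. *Csf3r* lies far to the left at -1.39 and highest at 0.56, whereas *Csf2rb* and *Csf2ra* lie near 0 horizontally and below 0 vertically.

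The genes whose levels over the 6 libraries ran most like those of *Csf3r*, the gene with the highest difference, were *Sdcbp*, *Cd38* and *Cyp4v3* (Pearson r of log2(FPKM + 1) of 0.9952, 0.9947 and 0.9946, among 8686 genes). *Cd38*, a surface enzyme that consumes NAD, measured 23.1, 15.1 and 8.55 FPKM in static and 32.7, 21.6 and 11.1 FPKM in FSS libraries. Those most like *Csf2rb2*, the gene with the lowest difference, were *Tor1aip2*, *Nup88* and *Ccdc25* (0.9951, 0.993 and 0.9919). With 6 libraries that share pairs and group, such values describe these libraries only.

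Other genes of the pathway were taken from 8 lists, some of which share genes. Their counts stand beside shares among all genes of 7.73% higher and 25.1% lower with the block, and of 19.2% higher and 16.8% lower with the block and scaling. Among ligands, *Csf2*, *Csf3*, *Il34* and *Kitl* stayed under 1 FPKM in every library, *Il3* and *Il5* had no value, and *Csf1* and *Flt3l* were tested and did not pass. *Flt3l*, which encodes the FLT3 ligand, gave 2.68 ± 0.445 and 2.84 ± 0.82 FPKM (SD, n = 3 per group; limma adjusted p = 0.942). Of 5 tested related receptor chains, none passed without the block and 2 fell with it, while 0 rose and 0 fell with the block and scaling. The 2 were *Il4ra*, the IL-4 receptor alpha chain, and *Il13ra1*, its partner for IL-13. *Il4ra* measured 76.2, 69.0 and 75.2 FPKM in static and 58.1, 59.3 and 51.9 FPKM in FSS libraries, with no overlap (limma adjusted p = 0.25; block 0.0205; block and scaling 0.083). *Il13ra1* gave means of 9.82 and 6.85 FPKM (limma adjusted p = 0.446, or 0.021 under the block; 0.0741 with the block and scaling). *Il2rg*, the common gamma chain, gave 108 ± 2.98 and 92.8 ± 5.29 FPKM and passed in neither fit (limma adjusted p = 0.519, or 0.0746 under the block).

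Of the 30 signal transducers, none passed without the block, and 2 rose and 7 fell with it (6 and 2 once scaled). The 7 of 30 lower with the block and the 6 of 30 higher once scaled are close to the shares of all genes, 25.1% and 19.2%. *Vav1*, an exchange factor for Rac, rose with the block from 16.1 ± 1.95 to 28.5 ± 7.07 FPKM (limma adjusted p = 0.124 without and 0.00689 with it). *Fgr*, a SRC-family kinase, and *Nras* fell with the block, from 31.6 to 19.7 and from 34.0 to 24.4 FPKM (limma adjusted p = 0.00577 and 0.00931; without it 0.118 and 0.173). The core of the GM-CSF signal showed no call with or without the block: *Jak2* gave 240 ± 71.7 and 210 ± 96.8 FPKM and *Stat5a* 113 ± 4.96 and 110 ± 28.2 FPKM. All 3 genes named here, *Stat5b* included, were chosen with their values known, and *Stat5b* rose with the block and scaling alone (limma adjusted p = 0.0117).

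Of 17 tested negative regulators, 1 fell without the block, 11 fell and none rose with it, and 9 fell and 1 rose once scaled. The list median was -0.45 log2 (all genes tested -0.12) and -0.29 once scaled (all genes 0.02). *Socs1*, an inhibitor of JAK kinases, measured 147, 143 and 235 FPKM in static and 37.7, 60.1 and 53.1 FPKM in FSS libraries, with every FSS library below every static one. It was the gene called without the block (log2 difference -1.77; limma adjusted p = 0.0287). *Spred1* and *Dok2*, both inhibitors of RAS signalling, and *Socs2* fell with the block: their means went from 69.1 to 26.5, from 80.9 to 37.1 and from 110 to 60.0 FPKM. Their limma adjusted p-values were 0.0506, 0.0604 and 0.116 without and 0.000865, 0.000623 and 0.00168 with the block.

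Of 20 genes listed as GM-CSF and STAT5 targets, 2 fell without the block, 12 fell and 1 rose with it, and 9 fell and 2 rose once scaled. The list median was -0.45 log2, or -0.30 once scaled. The 2 were *Irf4*, a factor of dendritic cell subsets, and the growth regulator *Myc*, at ratios of 0.274 and 0.316. *Ccnd2*, a cyclin of G1 phase, went from 144 ± 24.7 to 88.5 ± 25.8 FPKM and *Ccl17*, a chemokine for T cells that IL-4 also induces, from 3314 ± 264 to 2186 ± 590 FPKM; both fell with the block and not without it (limma adjusted p = 0.00224 and 0.00347 with it). *Cish*, a feedback inhibitor and direct STAT5 target taken up after its values were seen, measured 182, 154 and 191 FPKM in static and 115, 131 and 124 FPKM in FSS libraries. Its groups did not overlap, and it fell with the block (limma adjusted p = 0.163 without, 0.00977 with it and 0.0336 with scaling too). *Pim2*, a survival kinase also named with its values known, was the 1 that rose with the block (limma adjusted p = 0.0484). The calls of *Socs1* and *Myc* without the block were lost with any 1 library left out except FSS replicate 3 (limma adjusted p = 0.0644 to 0.128 and 0.0549 to 0.117). That of *Irf4* was lost without static replicate 1 or FSS replicate 1 or 2 (limma adjusted p = 0.0506 to 0.0667). The groups did not overlap, with FSS lower, for 11 of the 20 targets and 10 of the 17 regulators, against 20.4% of all genes, and with FSS higher for 1 of each, against 5.1%.

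**Figure D4:**
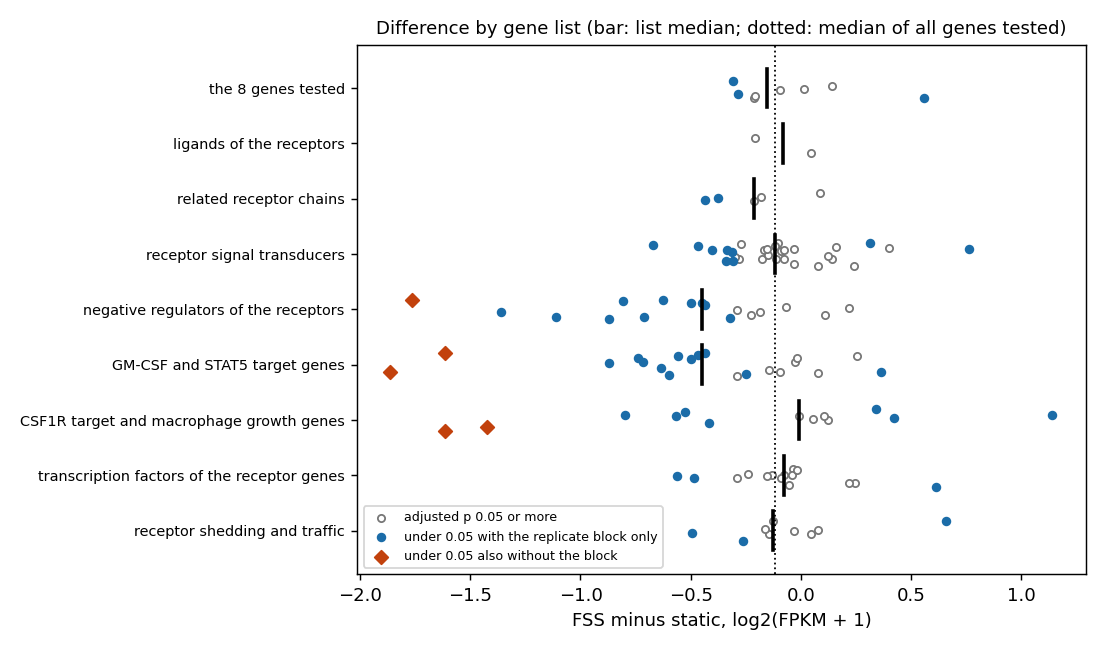
Difference between FSS and static on the log2(FPKM + 1) scale (horizontal axis) for each gene tested, by list, with black bars for list medians and a dotted line for the median of all genes tested (-0.12). Open points passed in neither fit, blue points passed only with the replicate block and red diamonds also without it. The 8 receptor and ligand genes lie around the dotted line, while the lists of negative regulators and of STAT5 targets have medians of -0.45.

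Of 13 tested genes linked to CSF1R and macrophage growth, 2 fell without the block, 3 rose and 6 fell with it, and 5 rose and 4 fell once scaled. *Ccr2*, a monocyte chemokine receptor, and *Egr2*, an early response factor, were the 2 (ratios of 0.352 and 0.324; limma adjusted p = 0.0469 and 0.0302), and both were lost without FSS replicate 1 or 2 or static replicate 1 or 2, and *Egr2* also without static replicate 3 (limma adjusted p = 0.0518). *Mertk*, a receptor for dying cells, went from 20.3, 21.4 and 12.3 to 57.3, 49.8 and 21.97 FPKM and rose with the block (limma adjusted p = 0.00166). *Spp1*, encoding osteopontin, rose and *Egr1* fell with the block, at ratios of 1.34 and 0.564. A further list held transcription regulators taken to act on these receptor genes, which was not tested here. Of the 15 tested, none passed without the block and 1 rose and 2 fell with it (3 and 1 once scaled). They were *Ets2* (ratio 1.53), *Zbtb46* (0.734) and *Cebpe* (0.676), while *Spi1*, which encodes PU.1 and was named with its values known, gave 223 ± 20.1 and 203 ± 4.81 FPKM (limma: adjusted p = 0.736 without and 0.259 under the block).

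Of 9 tested genes of receptor shedding and traffic, none passed without the block, and 1 rose and 2 fell with it (1 and 1 once scaled). *Adam17*, the protease that releases the outer part of CSF1R, measured 47.1, 45.3 and 29.5 FPKM in static and 90.6, 72.0 and 39.1 FPKM in FSS libraries, higher in each pair (limma adjusted p = 0.347 without and 0.0055 with the block). Its relative *Adam10* went the other way, from 47.7, 50.6 and 44.6 to 31.4, 39.0 and 30.6 FPKM, with no overlap (limma adjusted p = 0.174 without and 0.00705 with the block). *Clint1*, an adaptor of clathrin traffic, gave means of 94.7 and 79.2 FPKM and fell with the block alone (limma adjusted p = 0.0464, and 0.393 with the block and scaling). In the lists with 0 calls without the block, limma gave an unadjusted p under 0.05 to 0 of 2 ligands, 1 of 5 related chains, 3 of 30 transducers, 1 of 15 factors and 1 of 9 shedding and traffic genes. Among all genes tested, 1969 of 10899 had such a p in that fit.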

How the data were processed

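RNA of 3 static and 3 FSS libraries, grouped and numbered by the submitters' sample titles, was analysed. The authors deposited a table of 22899 genes, per the file headers as expression without a unit, for the whole series and per sample, and all 6 libraries were identical in both. The deposited values were taken as FPKM: library totals differ (413898 to 470596), and value times median transcript length (GENCODE M21) in kb summed to 551364 to 608062, and with the longest transcript to 1142199 to 1276020. HISAT and Bowtie2 are named in the submitters' processing notes, without version or role; the quantifier, build, annotation and strand setting: not given in the sources used here, so overlapping and antisense genes cannot be told apart. In 4828 genes all values were blank. Values carry 2 decimals and no counts, so depth per sample is unknown.

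The 10899 genes reaching 1 FPKM in 3 or more libraries were fitted on log2(FPKM + 1), a scale that understates changes of low genes, with limma 3.58.1 in R 4.3.3 (moderated variances following the mean, two-sided, Benjamini-Hochberg over all genes, threshold 0.05). Ratios are of mean FPKM. Single values used exact permutation tests over 20 splits. Deviations from group means correlated between same-numbered libraries (Pearson 0.79, 0.66 and 0.87), so numbers were taken to pair the samples. The labels do not say what a number shares. The fits were tested on simulated data. Without the block 0% of 1.5-fold and 36% of 2-fold changes were recovered, with 0 false calls. With the block 42% and 70% were recovered, with 3 false calls. A missing call without the block therefore does not show that a change of such size is absent. Changes under 1.5-fold, such as that of *Csf2rb* (mean ratio 0.821), were not simulated. False calls in simulated data do not give the share of false calls among the real ones.

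The members, the lists and the contrast of number 3 were chosen with earlier results of these data known. Named were all 9 genes; list genes under 0.05 without the block plus up to 3 per list by smallest adjusted p with it; the 3 genes most correlated with the members of highest and lowest difference (mean log2 of 2 or more); and the 2 highest of the markers read. Alternatives were a pseudocount of 0.1, no filter, the block, median-ratio scaling, both, and each library left out; leaving out a pair was added after seeing the data.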

Additional observations from a re-analysis of the deposited data

How the results depend on the processing

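Counts over all genes depended on the setting, and each call among the 8 genes was made with the replicate block only. Over all genes, limma placed 93 higher and 94 lower; with no filter 14 and 7, with the replicate block 842 and 2739, with median-ratio scaling 158 higher, and with the replicate block and scaling 2092 and 1829. Without 1 library the counts ran from 3 to 291 higher and from 0 to 176 lower; without replicate 3 in both groups they were 402 and 373, and without 1 pair, with the block, 480, 563 and 1594 higher and 1642, 1948 and 2676 lower. Of the 8 genes, 1 rose and 2 fell with the replicate block, 2 rose with the block and scaling, and 0 to 2 rose and 0 to 2 fell with the block and 1 pair left out; no member was called under a pseudocount of 0.1, no filter, scaling without the block or any 1 library left out. The block changed no other call of the 8 genes. The difference of *Il3ra* turned negative without FSS replicate 1 (-0.01), FSS replicate 3 (-0.14) and static replicate 2 (-0.15). That of *Kit* turned positive without static replicate 1 (0.02), FSS replicate 3 (0.15) and pair 3 (0.075, with or without the block). Over single libraries left out, they ran from -0.15 to 0.19 and from -0.27 to 0.15. The *Csf2rb* share of the beta chain sum, 0.37 percentage points higher under FSS, ran from -0.77 (without FSS replicate 3) to 1.06 with 1 library left out, and was -0.0044 without static replicate 1. With sign flips of the pairs in place of a replicate block, the exact p of the summed beta chains was 0.25, the smallest 3 pairs allow. With scaling, 2635 genes were higher in number 3, against 1496. The cause of these shifts was not tested. Without counts the precision of low genes such as *Kit* and *Flt3* cannot be given.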
